A study of Mus musculus with 4 samples.

Results

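Killer lectin-like receptors are C-type lectin-like receptors of natural killer (NK) cells and of other innate lymphocytes. The genes followed here were the 8 named Klrb1b, Klrb1c, Klrc1, Klrc2, Klrd1, Klrk1, Klri1 and Klrg1. They were taken by gene name from 2 deposited tables, and all 8 had a row in both, of 15242 rows in the first table and 12546 in the second. The cells came from the small intestine of mice at steady state and were ILC3s (group 3 innate lymphoid cells), innate cells that make IL-22 and IL-17 and carry no rearranged antigen receptor. The sort took live cells with low CD45 and high CD90.2 that lacked lineage markers such as CD3, by the series' design text. The first table held 1 library of ILC3s from mice that lack IL-17D (labelled Il17d-KO, here IL-17D KO) and 1 of ILC3s from wild-type (WT) mice. The second held 1 library of CD93-positive (CD93+) and 1 of CD93-negative (CD93-) ILC3s, both from WT mice. The labels' protocols describe an unstimulated culture of 12 h that came before the CD93 sort; whether the IL-17D KO and WT cells of the first pair were cultured too is unknown. The sources used here do not state strain, age, the way the Il17d allele was made or the number of animals per library.

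Most of these receptors come in pairs of opposite sign. An inhibitory receptor carries a tyrosine motif in its tail that recruits phosphatases such as SHP-1, and an activating one borrows the signalling tail of an adaptor protein. In the Klrb1 (NKR-P1) group, Klrb1b encodes an inhibitory receptor that binds Clr-b, the product of Clec2d, and Klrb1c encodes NK1.1, an activating receptor and a standard surface mark of NK cells and group 1 innate lymphoid cells (ILC1s). Klrc1 (NKG2A, inhibitory) and Klrc2 (NKG2C, activating) each reach the surface as a heterodimer with CD94, the product of Klrd1, and bind the MHC class Ib molecule Qa-1. Klrk1 encodes NKG2D, an activating receptor for stress-induced ligands. Klri1 encodes an inhibitory receptor that pairs with the product of Klre1. Klrg1 encodes an inhibitory receptor for cadherins and marks mature NK cells, effector T cells and many ILC2s.

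There was 1 library per group, so no difference has a replicate check and no p-value is given. Values are FPKM (fragments per kilobase of gene, scaled to the reads of the library), and the word difference means the log2 difference of FPKM + 1. A gene counted as measured if its FPKM was 1 or more in either library of its pair, as was true of all 8 genes in both pairs. Differences of at least 2-fold (1 on that scale) were counted. Whole read numbers behind the FPKM could be recovered for all 8 genes in all 4 libraries, within 0.02 reads. Intervals in parentheses are 95% intervals from these reads (Clopper-Pearson for ratios, exact Poisson for levels); they cover counting error only. The 2 tables were made with different gene sets, so levels are compared within a table only. Recovered reads over all genes summed to 20945461 in IL-17D KO and 21660008 in WT, and to 11411006 in CD93+ and 10750240 in CD93- cells. The libraries of each pair also differed as a whole. The FPKM of Actb was 21853 in the IL-17D KO and 31207 in the WT library, and 1369 in the CD93+ and 692 in the CD93- library. That of Gapdh was 6.11, 2.83, 54.2 and 28.3 in the same order, so these genes went opposite ways in the first pair. When both libraries of a pair were scaled to a common sum, the median difference over all measured genes was 0.17 in the first pair, where it was 0.01 as deposited, and -0.12 in the second, where it was 0.04. In whole-population RNA, fewer cells of a type and less RNA per cell cannot be told apart.

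All 8 genes lie on mouse chromosome 6, and those other than Klrg1 within 0.939 Mb, from 128778485 to 129717132 (mm10, GENCODE M21), in the NK gene complex. Klrg1 lies 6.50 Mb outside that span, at 122270596 to 122282882. Klrd1 is on the plus strand (129591782 to 129598775) and the other members are on the minus strand. Because neighbours in this complex arose by duplication, the share of 50-base windows of each gene's annotated transcripts that also occur in another gene was counted. It was 0 for Klrd1, Klrk1 and Klrg1 and 5.83% for Klri1, which shares windows with Klri2. Klrc1 shared 38.6% of its windows and Klrc2 shared 16.3%, mostly with each other (742 windows). Klrb1b shared 27.2% and Klrb1c 16.98%, mostly with Gm44511, a gene model whose 1012 exon bases all lie within exons of these 2 genes. Gm44511 had no value of its own in either pair. How reads with several matches were treated is not stated in the sources used here, so the values of Klrc1, Klrc2, Klrb1b and Klrb1c are less certain than those of the other 4.

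The sequences before the transcription start of 4 members are shown because they form 2 pairs of an inhibitory and an activating receptor gene. Klrb1b and Klrb1c are neighbouring members, and Klrc1 and Klrc2 encode the inhibitory and the activating partner of the same CD94 chain. Each line gives 200 bases upstream of the RefSeq start (GRCm38.p6, chromosome 6, minus strand), 5′ to 3′ on the strand of the gene, and capitals mark the letters TGTGGT, the core bound by RUNX factors, on either strand. The windows are chr6:128826316-128826515 for Klrb1b, chr6:128788642-128788841 for Klrb1c, chr6:129678974-129679173 for Klrc1 and chr6:129660597-129660796 for Klrc2. Where RefSeq lists several starts the one farthest upstream was used, but GENCODE places the start of 3 of these genes further out. The Klrb1c window lies within an intron of a longer GENCODE transcript of the same gene. The Klrc2 window lies partly inside the GENCODE gene, which reaches to 129660689, and the Klrb1b window overlaps the end of its gene, at 128826331, by a few bases.
Klrb1b: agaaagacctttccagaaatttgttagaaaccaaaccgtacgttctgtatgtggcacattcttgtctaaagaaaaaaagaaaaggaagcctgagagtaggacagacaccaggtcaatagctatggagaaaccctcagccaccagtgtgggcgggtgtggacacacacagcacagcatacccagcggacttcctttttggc
Klrb1c: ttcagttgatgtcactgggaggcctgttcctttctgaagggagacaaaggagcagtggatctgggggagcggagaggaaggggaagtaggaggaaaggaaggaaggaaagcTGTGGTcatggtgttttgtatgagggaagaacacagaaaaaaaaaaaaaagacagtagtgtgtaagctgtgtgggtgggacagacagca
Klrc1: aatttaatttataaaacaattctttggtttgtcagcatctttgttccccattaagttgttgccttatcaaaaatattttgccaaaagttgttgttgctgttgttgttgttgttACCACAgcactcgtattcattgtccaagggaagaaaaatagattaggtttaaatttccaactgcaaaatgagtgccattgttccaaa
Klrc2: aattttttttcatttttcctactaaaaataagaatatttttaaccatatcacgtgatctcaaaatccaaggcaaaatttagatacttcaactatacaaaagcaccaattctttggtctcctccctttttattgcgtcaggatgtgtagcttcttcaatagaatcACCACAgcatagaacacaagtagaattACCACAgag

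RefSeq windows of 250 bases before the start were found for 6 of the 8 genes; Klrd1 and Klrg1 were not matched. TGTGGT was present, on either strand, in the windows of Klrb1c, Klrc1, Klrc2 and Klrk1, 4 of 6, against 14.2% of the windows of 27025 genes. Klrc2 held it at 2 places, 31 to 36 and 4 to 9 bases before the RefSeq start used, both inside the gene as GENCODE draws it. GGAAGT, an ETS core, was present in Klrb1b and Klrb1c (19.9% of all windows). GGTGTGA, the core bound by T-box factors, and TTCNNNGAA, the STAT palindrome, were in 0 of 6 (3.31% and 7.14% of all windows). These are matches of letters, not shown binding sites.

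Klrb1b was the most abundant member in every library. Its FPKM was 379 in the IL-17D KO and 385 in the WT library, and 293 in the CD93+ and 406 in the CD93- library. It held 69.6%, 68.5%, 78.6% and 71.7% of the summed FPKM of the 8 genes in the same order. By level it stood at rank 168 among all rows in IL-17D KO, 195 in WT, 94 in CD93+ and 38 in CD93- cells. The inhibitory NKR-P1 receptor was thus the leading transcript of the family in each library.

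Below Klrb1b, Klrk1 and Klrc1 came next everywhere. Klrk1 stood above Klrc1 in the first pair (58.0 and 43.6 in IL-17D KO; 80.1 and 52.6 in WT), and below it in the second (26.0 and 38.8 in CD93+; 43.7 and 59.6 in CD93-). Klrg1, Klri1, Klrd1, Klrc2 and Klrb1c filled the lower ranks in changing order. In WT the order was Klrg1, Klrb1c, Klri1, Klrc2 and Klrd1, each apart from the next beyond its counting interval. In IL-17D KO it was Klrb1c, Klrg1, Klri1, Klrd1 and Klrc2, with Klrd1 and Klrc2 not apart from each other. In CD93+ cells Klrd1, Klri1 and Klrb1c were the 3 lowest and their neighbouring intervals overlapped. In CD93- cells the intervals of neighbours overlapped from Klrd1 through Klrg1 and Klri1 to Klrc2.

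**Figure D1:**
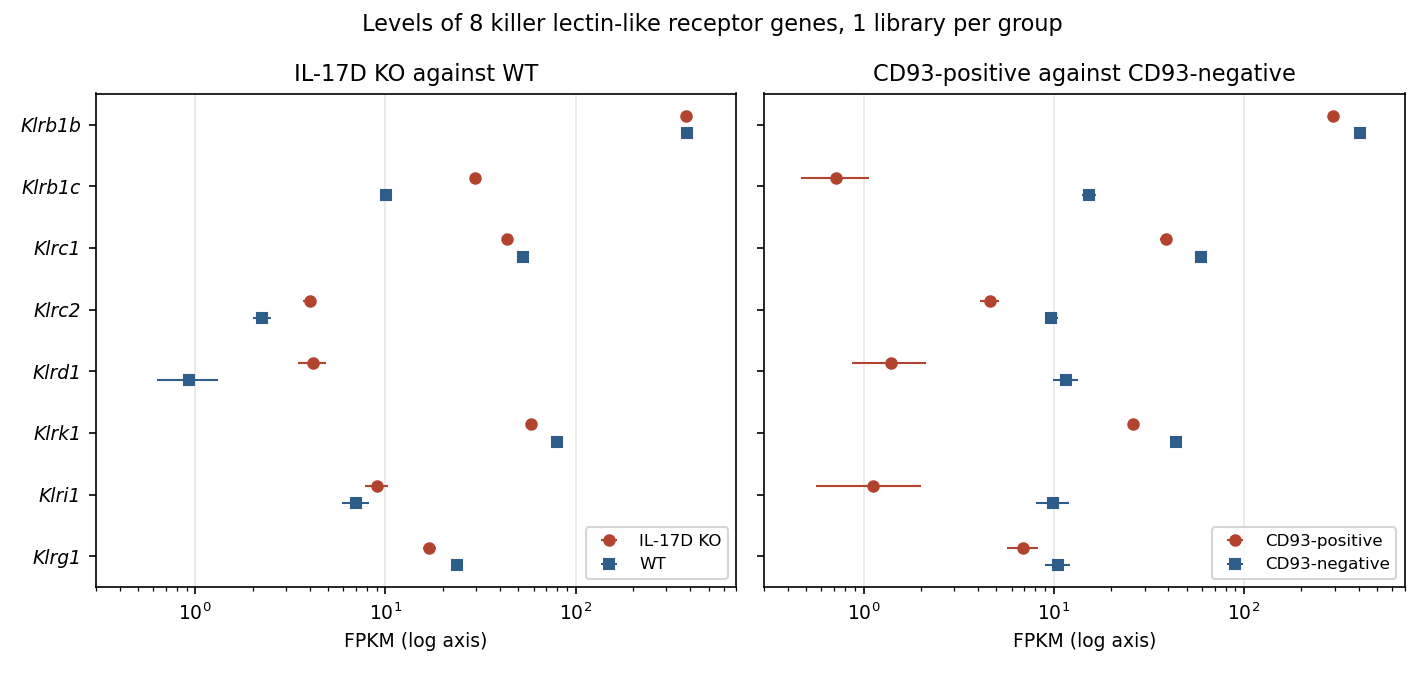
FPKM (log axis) of the 8 genes in the IL-17D KO and WT libraries (left) and in the CD93-positive and CD93-negative libraries (right); each point is 1 library and bars are 95% exact Poisson intervals of the reads. Klrb1b lies at 293 to 406 in all 4 libraries, while Klrb1c, Klrd1 and Klri1 lie at 0.721 to 1.40 in CD93-positive and 9.92 to 15.3 in CD93-negative ILC3s.

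The comparison of CD93+ with CD93- cells asks how cells sorted as positive for this surface glycoprotein differ from those sorted as negative. All 8 receptor genes had lower values in the CD93+ library, and 3 of them, Klrb1c, Klrd1 and Klri1, were at least 2-fold lower. Of the 10117 measured genes, 45.6% had a lower value, 1.94% were at least 2-fold lower and 2.49% at least 2-fold higher. Those 3 genes had 100 to 1000 reads over the pair, and 2.15% of all measured genes in that range were at least 2-fold lower. The median difference of the 8 genes was -0.83, against 0.04 for all measured genes. With a common sum, which turned the split of all genes at least 2-fold apart to 173 higher and 296 lower (252 and 196 as deposited), all 8 genes stayed lower and Klrc2 also passed 2-fold. The distance between the median of the 8 genes and that of all genes was -0.87 on either scale. The Cd93 transcript had an FPKM of 155.0 in the CD93+ and 79.9 in the CD93- library, a ratio of 1.94. It was thus well detected in both, and its difference of 0.95 stayed short of the 2-fold count, so it is a weak check of the sort.

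Klrb1c, the NK1.1 gene, had the widest gap. It had an FPKM of 0.721 in CD93+ and 15.3 in CD93- cells, from 25 and 535 reads. That is 21.3-fold lower (14.2 to 33.1) and a difference of -3.25, the fourth lowest of all 10117 measured genes. Its neighbour Klrb1b had 293 and 406, only 1.39-fold lower (1.35 to 1.43). The FPKM of Klrb1b was therefore 406 times that of Klrb1c in CD93+ (275 to 627) and 26.5 times in CD93- cells (24.3 to 29.0). The inhibitory gene of this neighbouring pair thus differed far less than the activating one. Its difference of -0.47 still ranked 973 from the lowest of the 10117 measured genes.

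Among the CD94 and NKG2 genes, the shared chain differed more than its partners. Klrd1 had an FPKM of 1.40 in CD93+ and 11.6 in CD93- cells, from 21 and 175 reads, 8.28-fold lower (5.25 to 13.7). Klrc1 had 38.8 and 59.6, 1.54-fold lower (1.41 to 1.67). Klrc2 had 4.60 and 9.72, 2.11-fold lower (1.85 to 2.43), with a difference of -0.94 that stayed short of the 2-fold count. The activating Klrc2 was lower by more than the inhibitory Klrc1, and the FPKM of Klrc1 was 8.43 times that of Klrc2 in CD93+ (7.41 to 9.62) and 6.14 times in CD93- cells (5.59 to 6.74). The ratio of Klrc1 to Klrd1 was 27.7 (18.0 to 45.0) and 5.15 (4.40 to 6.06) in the same order.

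The NKG2D gene Klrk1 had an FPKM of 26.0 in CD93+ and 43.7 in CD93- cells, 1.68-fold lower (1.59 to 1.77). Hcst, which encodes DAP10, the adaptor that NKG2D signals through, had 27.4 and 29.6, a ratio of 0.927 (0.772 to 1.11). The receptor was thus lower relative to its adaptor, with a Klrk1 to Hcst ratio of 0.948 (0.828 to 1.09) in CD93+ and 1.48 (1.30 to 1.68) in CD93- cells. Klri1 had 1.12 and 9.92, from 11 and 98 reads, 8.85-fold lower (4.74 to 18.3), the tenth lowest difference of all measured genes, one place after Klrd1. Its activating relative Klri2 had 10.1 and 21.1, 2.10-fold lower (1.88 to 2.35). Here the inhibitory gene differed by more than the activating one, unlike Klrb1b beside Klrb1c and Klrc1 beside Klrc2. Klrg1 had 6.88 and 10.5, from 114 and 175 reads, 1.52-fold lower (1.20 to 1.95).

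**Figure D2:**
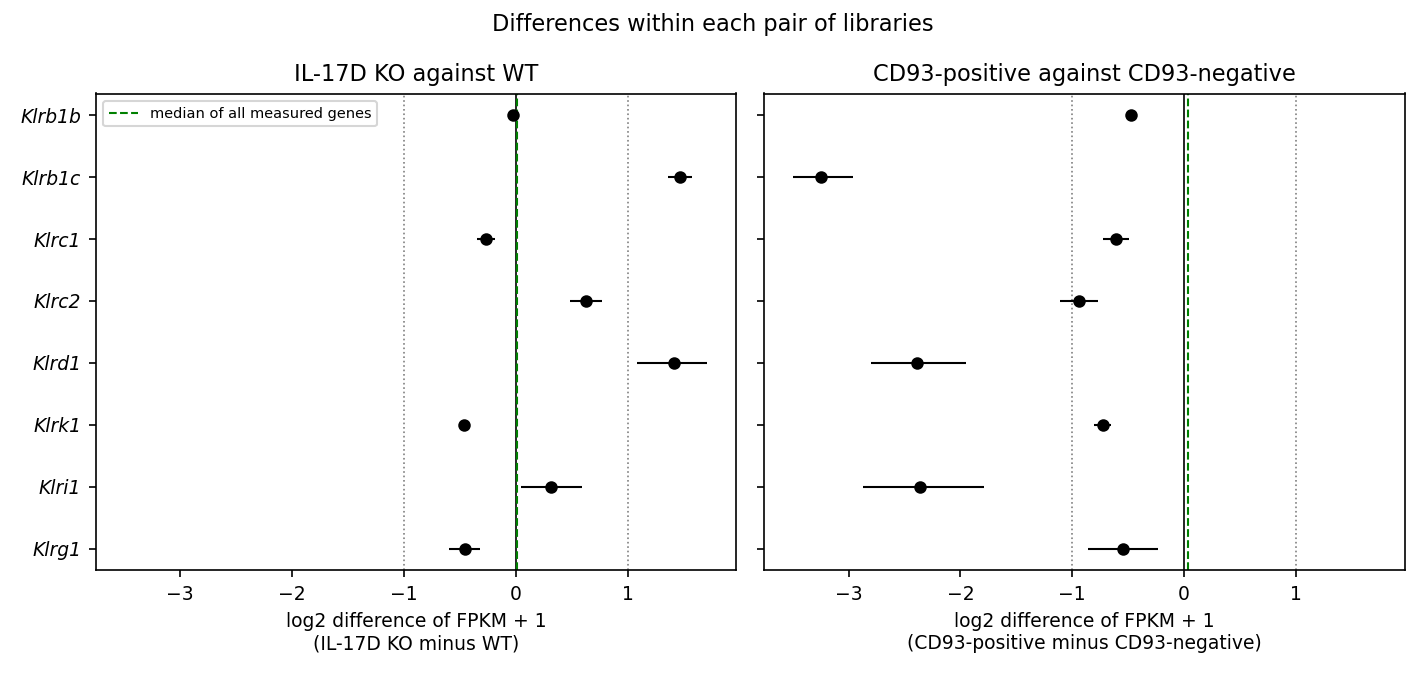
Log2 difference of FPKM + 1 of the 8 genes, IL-17D KO minus WT (left) and CD93-positive minus CD93-negative (right), with 95% counting intervals; dotted lines mark 2-fold and the dashed line the median of all measured genes. On the right all 8 points lie below 0, from -0.47 (Klrb1b) to -3.25 (Klrb1c), and on the left they lie on both sides of 0, from -0.46 (Klrk1) to 1.47 (Klrb1c).

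The comparison of IL-17D KO with WT ILC3s asks what the loss of the cytokine does at steady state, and here the 8 genes went both ways. Klrb1c and Klrd1 were at least 2-fold higher in the IL-17D KO library and 0 of the 8 were at least 2-fold lower. Of the 12376 measured genes, 16.6% were higher by 2-fold or more and 12.7% lower, so 2 of 8 is near the share of all genes and is not a result about the family. A lower value was seen for 4 of the 8, against 49.5% of all measured genes. The median difference over the 8 genes was 0.15, against 0.01 for all measured genes. Klrc2 and Klri1 were higher by less than 2-fold, and Klrc1, Klrk1 and Klrg1 were lower by less than 2-fold, directions that a common sum and a median ratio of 1 left as they were. The sign for Klrb1b turned under both scalings. No value for Il17d, the targeted gene, was analysed here, and the genotype labels are therefore unchecked.

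Klrb1c had an FPKM of 29.5 in IL-17D KO and 10.03 in WT, from 2360 and 775 reads, 2.94-fold higher (2.71 to 3.19). Klrb1b had 379 and 385, a ratio of 0.985 (0.967 to 1.00). The ratio of Klrb1b to Klrb1c was 12.8 (12.3 to 13.4) in IL-17D KO and 38.4 (35.7 to 41.3) in WT. As between the CD93 libraries, the activating Klrb1c differed by more than the inhibitory Klrb1b. Of measured genes with 1000 to 10000 reads over this pair, as Klrb1c has, 8.78% were at least 2-fold higher.

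Klrd1 had an FPKM of 4.13 in IL-17D KO and 0.928 in WT, 4.46-fold higher (3.01 to 6.80). It rested on 143 and 31 reads, and of measured genes with 100 to 1000 reads over this pair 22.5% were at least 2-fold higher. Klrc2 had 4.002 and 2.24, 1.79-fold higher (1.57 to 2.05), while Klrc1 had 43.6 and 52.6, a ratio of 0.829 (0.784 to 0.877). The activating NKG2C gene and the inhibitory NKG2A gene thus lay on opposite sides of WT. With a common sum the Klrc1 difference shrank from -0.26 to -0.10, and the 2 genes share sequence. The ratio of Klrc1 to Klrc2 was 10.9 (9.97 to 11.9) in IL-17D KO and 23.5 (20.996 to 26.4) in WT. The ratio of Klrc1 to Klrd1 was 10.5 (8.90 to 12.6) in IL-17D KO and 56.7 (39.8 to 83.6) in WT.

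Klrk1 had an FPKM of 58.0 in IL-17D KO and 80.1 in WT, 1.38-fold lower (1.35 to 1.42), and its adaptor gene Hcst had 81.4 and 99.6. Klrg1 had 17.02 and 23.7, 1.39-fold lower (1.26 to 1.55). Klri1 had 8.97 and 6.999, from 203 and 153 reads, 1.28-fold higher (1.03 to 1.59). None of these 3 genes differed by 2-fold under the alternatives tried.

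**Figure D3:**
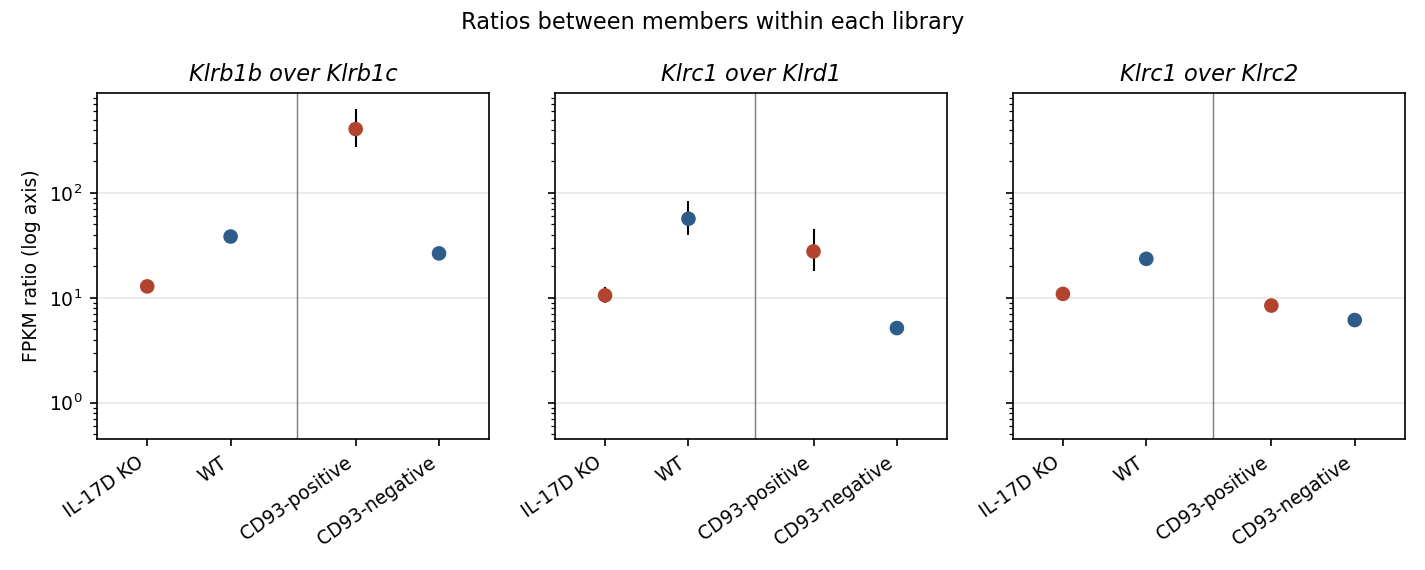
FPKM ratio (log axis) of Klrb1b to Klrb1c, of Klrc1 to Klrd1 and of Klrc1 to Klrc2 within each of the 4 libraries; bars are 95% counting intervals and a line parts the 2 pairs, whose levels are not compared. Each ratio is lower in IL-17D KO than in WT and higher in CD93-positive than in CD93-negative ILC3s, with Klrb1b over Klrb1c at 406 and 26.5 in the second pair.

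The 3 genes with the widest gaps between the CD93 libraries, Klrb1c, Klrd1 and Klri1, all had higher values in IL-17D KO than in WT. For Klri1 the ratio was only 1.28 (1.03 to 1.59), and 49.5% of all measured genes had a lower value in IL-17D KO. Klrc2 was also higher in IL-17D KO, while Klrb1b, Klrc1, Klrk1 and Klrg1 were lower. Cd93 itself had an FPKM of 20.5 in IL-17D KO and 43.5 in WT, 2.12-fold lower (2.04 to 2.20). The pairs consist of different libraries, each gene has 1 value per pair, and a link between the pairs was not tested. By the distance of both differences from those of Klrd1, over the 2 pairs (4 libraries) and among 3959 nameable genes that reached an FPKM of 5 in each pair, the 10 nearest genes were Atp6v0d2, Fasl, Ccr9, Nkg7, Klrb1c, Gzma, Gpr55, Slc6a20a, Klri1 and Slc16a10. The genes were chosen by these differences, so their likeness to Klrd1 follows from the choice, and a shared function was not tested. Fasl encodes the Fas ligand, Gzma granzyme A, Nkg7 a cytotoxic granule protein and Ccr9 a gut homing receptor. Klrd1 itself stayed under that level in the first pair. Fasl had an FPKM of 111 in IL-17D KO and 28.9 in WT, and 3.26 in CD93+ and 15.7 in CD93- cells. Gzma had 113 and 34.6, and 27.0 and 82.2, in the same order. Of 3968 genes at that level, 8 passed 2-fold upward in IL-17D KO and 2-fold downward in CD93+ cells, and Klrb1c was the member among them. Taking each pair alone at an FPKM of at least 5, 908 of 7051 genes were at least 2-fold higher in IL-17D KO. In CD93+ cells 127 of 7091 were at least 2-fold lower. Whether 8 exceeds what unrelated differences would give was not tested.

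**Figure D4:**
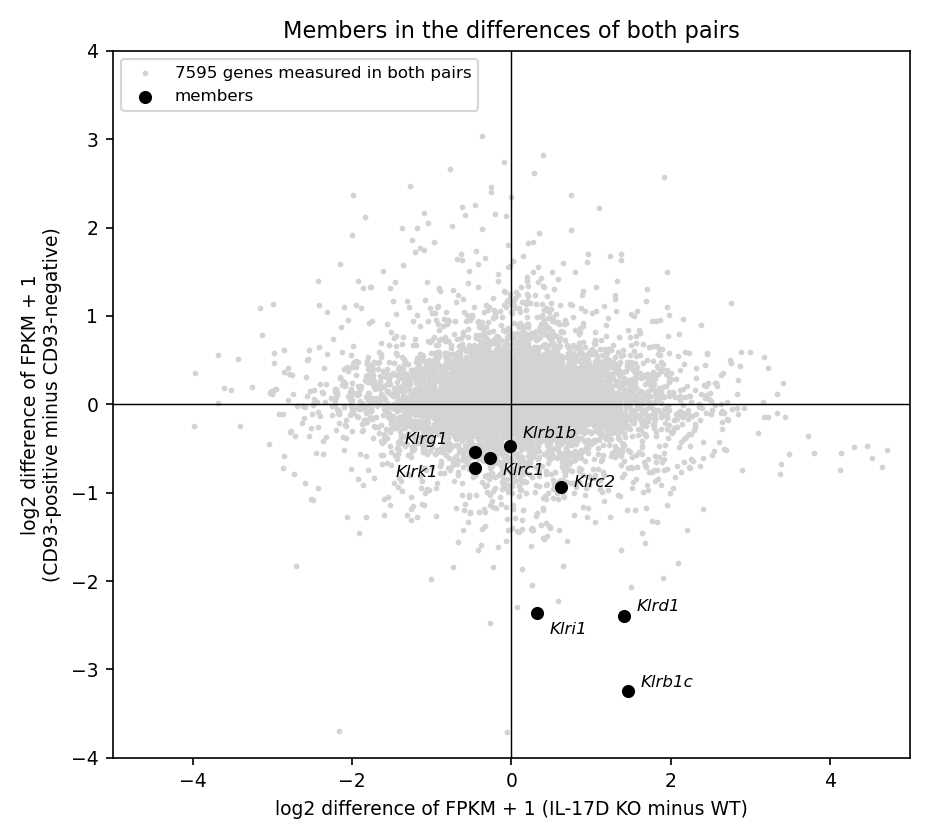
Log2 difference of FPKM + 1 between IL-17D KO and WT (horizontal) and between CD93-positive and CD93-negative ILC3s (vertical) for 7595 genes measured in both pairs (14 lie outside the axes), with the 8 receptor genes in black. Klrb1c and Klrd1 lie at 1.47 and -3.25 and at 1.41 and -2.39, and Klrb1b, Klrc1, Klrg1 and Klrk1 lie close together with -0.47 to -0.73 on the vertical axis.

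Related lectin-like genes and their neighbours were set beside the members from a list of 29, nearly all of them in the NK gene complex (Klrg2 lies elsewhere on chromosome 6). Of 8 measured in the CD93 pair, 3 were at least 2-fold lower in CD93+ cells and 0 higher, with a median difference of -0.73. Over all measured genes of that pair, 1.94% were lower and 2.49% higher by 2-fold or more. Klra5, a Ly49 receptor gene, had an FPKM of 1.65 and 8.49 (27 and 140 reads), 5.15-fold lower (3.39 to 8.09), and Klrb1, another NKR-P1 gene, had 0.851 and 2.90 (14 and 48 reads). The third, Klri2, lay at the 2-fold limit. Klrc3, whose sequence before its start was 94.8% identical to that of Klrc2 over 210 bases, had 7.08 and 13.3. It shared 36.3% of its 50-base transcript windows with other genes, mostly with Klrc2, so its value is uncertain. Clec2d, which encodes the Clr-b ligand of the Klrb1b product, had 51.3 and 77.6, and Cd69, which lies among these genes and encodes an activation and tissue retention marker, had 36.4 and 36.2.

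In the first pair, 13 of the 29 were measured, with 3 at least 2-fold higher and 2 lower in IL-17D KO and a median difference of 0.25. These counts are near the shares over all measured genes, 16.6% higher and 12.7% lower, and are no result about the list. Klre1, which encodes the partner of the Klri1 product, had an FPKM of 2.91 in IL-17D KO and 0.702 in WT (275 and 64 reads), 4.15-fold higher (3.15 to 5.54). Klrb1a had 3.41 and 0.865 (147 and 36 reads). The Ly49 genes, whose sequences resemble each other closely, were split: Klra9 had 180 reads in IL-17D KO and 0 in WT, which against a floor of 3 reads is at least 58.0-fold higher, while Klra6 had 0 and 114 reads and Klra3 had 0 and 55, at least 39.3-fold and 19.0-fold lower. Klra3 and Klra9 shared 20.7% and 31.5% of their 50-base windows with other genes, so their values are uncertain. Klra6 shared 2.62%. Klrb1f, another NKR-P1 gene, had 48.6 and 29.6, 1.64-fold higher (1.54 to 1.75).

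**Figure D5:**
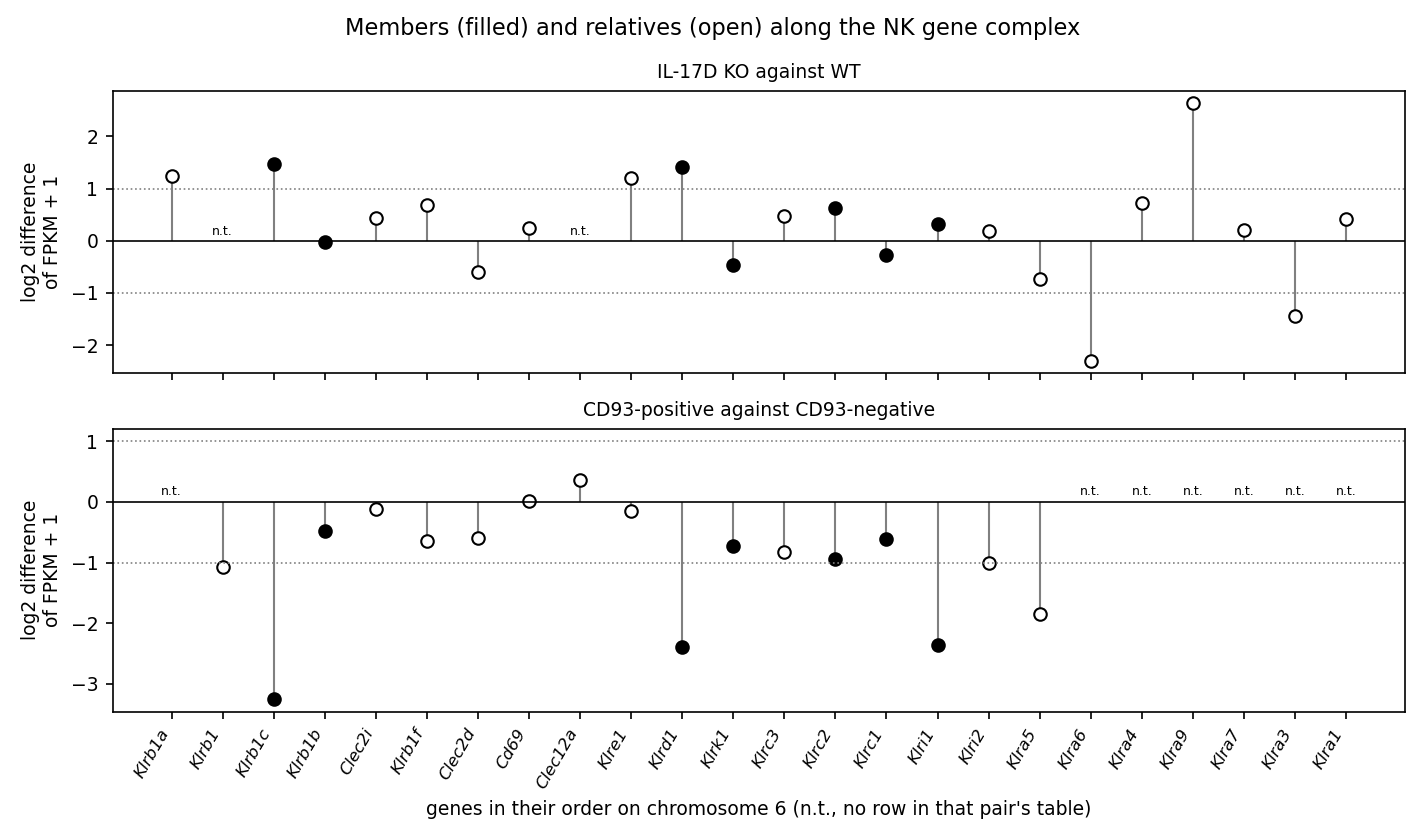
Log2 difference of FPKM + 1 for members (filled) and listed relatives (open) in their order on chromosome 6, IL-17D KO minus WT (top) and CD93-positive minus CD93-negative (bottom); n.t. marks a gene with no row in that table and dotted lines mark 2-fold. At the bottom Klrb1c, Klrd1 and Klri1 stand at -3.25, -2.39 and -2.36 between neighbours with smaller differences, and at the top Klra6 and Klra9 stand at -2.30 and 2.64.

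The adaptors and signalling genes behind these receptors were mostly under 2-fold apart. Between the CD93 libraries, 2 of 20 measured genes were at least 2-fold lower, the kinase gene Lck (23.1 in CD93+ and 53.2 in CD93-) and the phospholipase gene Plcg1 (2.36 and 5.85), and 0 were higher. The share of all measured genes at least 2-fold lower was 1.94%. Fcer1g, the adaptor gene of NK1.1, had 327 and 255, and Tyrobp, which encodes DAP12, the adaptor of NKG2C, had 5.50 and 6.87 (43 and 54 reads). The phosphatase genes Ptpn6 (SHP-1), Ptpn11 (SHP-2) and Inpp5d (SHIP-1) had 11.4 and 12.0, 21.05 and 18.8, and 45.3 and 43.2. The adaptor of the strongly lower Klrb1c was thus not lower.

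In the first pair 4 of 20 genes were at least 2-fold higher in IL-17D KO and 2 lower, near the 16.6% and 12.7% of all measured genes. Tyrobp had an FPKM of 31.6 in IL-17D KO and 7.41 in WT, 4.27-fold higher (3.52 to 5.21), and Cd247, the CD3 zeta gene, had 3.40 and 0.266. Grb2 and Lat were the other higher genes, and Lyn and Sh2d1b1 the lower ones. Ptpn6 had 37.3 and 12.4, 3.001-fold higher (2.78 to 3.24), while Fcer1g had 658 and 797. Tyrobp is also a gene of myeloid cells, and both measured myeloid markers, Lyz2 and Cd68, were at least 2-fold higher, with a summed FPKM of 55.5 in IL-17D KO and 11.7 in WT. Their part in the Tyrobp value was not tested.

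Ligand genes of the receptors were measured in the same cells. H2-T23, which encodes the Qa-1 ligand of CD94 and NKG2 dimers, had an FPKM of 430 in CD93+ and 397 in CD93- cells, and 100 in IL-17D KO and 86.9 in WT. Among the NKG2D ligand genes, H60b had 2.11 in CD93+ and 7.97 in CD93- cells, the 1 gene of 9 measured ligand genes that was at least 2-fold lower, and 0 were higher. Between the CD93 libraries 1.94% of all measured genes were at least 2-fold lower. In the first pair 1 of 8 was lower, Raet1d, with 0 in IL-17D KO and 7.45 in WT. That is near the 12.7% of all measured genes and is no result about the list. Cdh1, the E-cadherin ligand of KLRG1, had 1.57 in CD93+ and 3.78 in CD93- cells.

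Marker lists of the cells that could carry these receptors were summed in each library. Of 14 measured NK and ILC1 genes, 6 were at least 2-fold lower in CD93+ cells and 0 higher (median -0.91), among them the transcription factor gene Tbx21 (T-bet; 7.96 and 25.4) and Il12rb2 (0.720 and 8.58). By comparison, 1.94% of all measured genes were at least 2-fold lower there. Ncr1, which encodes NKp46, had 14.8 and 25.7, and the summed FPKM of the list was 1546 and 1717, of which Il2rb gave 977 and 643. In IL-17D KO, 2 of the 14 were higher, Gzma and Fasl, and 0 lower (median 0.06), where 16.6% and 12.7% of all measured genes were. Beside them stood Tbx21 at 4.52 and 7.80, Ncr1 at 82.1 and 80.0, and a sum of 1476 in IL-17D KO and 1026 in WT. Eomes, the factor that parts NK cells from ILC1s, was on the list of 15 genes but not among the 14 with a value in either pair. None of the NK and ILC1 genes analysed was at 0.

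T cells carry several of these receptors as well. In IL-17D KO, 8 of 13 listed T cell markers were higher by 2-fold or more and 0 lower (1 lower with a pseudocount of 0.1). Their sum was 1310 in IL-17D KO and 900.1 in WT, with Cd3d at 40.1 and 18.9. For this and the lists below, the shares of all measured genes were 16.6% higher and 12.7% lower in IL-17D KO. In CD93+ cells they were 2.49% higher and 1.94% lower. Between the CD93 libraries, of 4 T cell markers measured, 3 were at least 2-fold lower in CD93+ cells (Cd3d, Cd3g and Lef1), with a sum over 6 tabulated genes of 3.45 and 12.8. The ILC2 list, the one nearest to Klrg1, had 5 of 9 genes higher and 2 lower in IL-17D KO (sum 193 and 109, with Pparg at 0 in IL-17D KO and Hpgd at 0 in WT), and 1 of 7 lower in CD93+ cells (sum 27.4 and 40.6). The 6 exocrine pancreas genes summed to 1041 in IL-17D KO and 0.235 in WT, and 5 of them to 129 in CD93+ and 196 in CD93- cells. Of 5 epithelial genes measured in the first pair, 4 were higher in IL-17D KO by 2-fold or more (sum 176, against 48.4 in WT). Of 4 in the second, 1 was lower in CD93+ cells, Epcam, with a list sum of 22.5 and 39.4. Of 9 genes of lymphoid tissue inducer (LTi)-like ILC3s, 7 were higher by 2-fold or more in CD93+ cells and 0 lower. Their sum was 511, against 236 in CD93- cells. In IL-17D KO 1 of the 9 was higher, near the share of all measured genes (sum 832, against 834 in WT). The mast cell gene Cpa3 had 0 in IL-17D KO and 4.62 in WT, and 0.0563 in CD93+ and 1.23 in CD93- cells. The ILC3 cytokine gene Il22 had an FPKM of 7934 in CD93+ and 1655 in CD93- cells, and 11771 in IL-17D KO and 16102 in WT. Of the 10 ILC3 genes listed, 2 were at least 2-fold higher in CD93+ cells, Il22 among them, and 0 lower (median 0.17). In IL-17D KO, 0 of the 10 were higher and 0 lower by 2-fold or more (median -0.10). The part of T cells, NK cells, ILC1s and other cells in the receptor values was not tested.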

How the data were processed

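RNA of 4 sorted ILC3 libraries, 1 per group, was read on a BGISEQ-500 instrument, per the series' design text. The authors computed and deposited FPKM; Bowtie2, featureCounts of Subread, edgeR and DESeq2 and the build mm10 are named in the submitters' processing notes, with no order, settings or versions; the annotation is not stated in the sources used here. The members and lists were chosen with earlier results of these data known.

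Reads were recovered as FPKM times exon length (GENCODE M21) over a step found for each library. They came out whole, to 0.02 reads, for 92.1% (IL-17D KO), 91.9% (WT), 98.1% (CD93-positive) and 98.2% (CD93-negative) of values above 0 with a length. The step gave scaling totals of 27002581, 26087274, 11712846 and 11790580, which need not equal sequenced reads. This step was tested on simulated data. Copies made by PCR were not told apart from molecules, so intervals and the floor of 3 reads cover counting error only.

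Differences used a pseudocount of 1 and compare libraries, not conditions. Every listed gene could be named; likeness was the Euclidean distance from Klrd1 in both differences, without predicted, clone-named, small RNA and receptor segment genes. Promoter windows came from RefSeq (GRCm38.p6); 1 of the motifs searched and 1 marker list are not reported here. Python 3.11.15, pandas 2.3.3, NumPy 2.4.6 and SciPy 1.17.1 were used. Alternatives were pseudocounts of 0.1 and 5, other filters, a 3-fold limit, 2 scalings and, added after the data were seen, no pseudocount. Rows without a matching name were not used for reads.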

Additional observations from a re-analysis of the deposited data

How the results depend on the processing

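Between CD93+ and CD93- cells, all 8 receptor genes stayed lower and Klrb1c, Klrd1 and Klri1 stayed at least 2-fold lower (3-fold with the 3-fold limit) under each of 8 alternatives. Klrc2 joined them, making 4, with a pseudocount of 0.1, without one, and with a common sum. The median of the members was -0.63 with a pseudocount of 5 and -0.99 with a common sum. Between IL-17D KO and WT, the count of members at least 2-fold higher was 1 (Klrb1c) with a pseudocount of 5 or an FPKM of at least 5, and 0 with the 3-fold limit. The median of the members was -0.14 over the 6 genes with an FPKM of at least 5, the other direction, since Klrc2 and Klrd1 drop out, and 0.31 with a common sum, which raised all genes too. Counts over all genes moved as well: with a pseudocount of 5, 499 genes were higher and 322 lower in IL-17D KO and 109 and 60 in CD93+ cells; with the 3-fold limit 920 and 636, and 73 and 37. Between the CD93 libraries, 391 were higher and 392 lower with a pseudocount of 0.1, 413 and 428 without one, and 173 and 296 with a common sum. With an FPKM of at least 5, 908 were higher and 611 lower in IL-17D KO, and 210 and 127 in CD93+ cells. As deposited the counts were 2058 and 1569, and 252 and 196. Depth limits Klri1, Klrd1 and Klrb1c in CD93+ cells (11 to 25 reads) and Klrd1 in WT (31 reads). No paired analysis was possible because each group had 1 library.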
